A study of Mus musculus with 25 samples.

Results

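The genes described here encode the proteins of the mitochondrial ribosome in mouse white adipose tissue. They were chosen by name, as every gene whose mouse symbol begins with Mrpl (large subunit) or Mrps (small subunit) followed by a number and at most 1 letter. The rule gave 78 of the 54752 genes in the count files, 49 with a large subunit symbol and 29 with a small subunit symbol. RNA had been sequenced from snap-frozen epididymal (eWAT) and inguinal (iWAT) fat of male mice of the C57BL/6N strain, named C57BL/6NJ in the treatment protocol. Wild-type (WT) mice had been fed a normal chow diet (ND) or a high-fat diet (HFD), and Acod1-/- mice (KO), which lack the itaconate-making enzyme ACOD1 in all cells, had been fed the HFD. Both diets were begun at 5 weeks of age and kept for 16 weeks, except that 2 KO iWAT samples carry labels of 17 and 18 weeks. The 6 groups held 4 WT ND, 5 WT HFD and 5 KO HFD libraries of eWAT, and 3, 5 and 3 of iWAT. No KO mice on the ND were sequenced, so diet was compared in WT mice and genotype on the HFD.

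The mitochondrial ribosome translates the few messenger RNAs that mitochondrial DNA encodes, which specify core proteins of oxidative phosphorylation. Its ribosomal RNAs come from mitochondrial DNA, but every one of its proteins is encoded in the nucleus, made in the cytosol and imported. Some of these proteins descend from bacterial ribosomal proteins and keep their positions around the decoding and peptidyl transferase centers, and others were added during the evolution of mitochondria. Brown fat, and white fat that takes on brown features, is rich in mitochondria, while white adipocytes hold fewer.

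Between 31.41 and 52.34 M reads were counted on genes per library, and the 78 genes took 0.237 to 0.396% of them. Acod1 itself had 0 to 9 reads in WT HFD and 0 to 2 in KO libraries of either depot, too few to check the genotype labels. By the start of the count column names in the file headers, the libraries fall into 2 series, of 14 and 11 libraries. Whether these series are sequencing runs is not given. All ND libraries were in series 2, together with WT HFD 5 and KO 5 of eWAT and WT HFD 5 and KO 3 of iWAT, so diet and series were largely confounded. The adipocyte markers were abundant in every library, with a summed level of 20684 to 55910 CPM (counts scaled to library size), and each pair of libraries of a group differed by more than sampling noise. Markers of the epididymis reached 2255 CPM in eWAT ND 2, against at most 299.6 in the other eWAT libraries. B-cell markers summed to 489 to 727 CPM in iWAT ND and to at most 50.1 in iWAT WT HFD.  Since the RNA came from whole tissue, fewer cells of a type and less RNA per cell cannot be told apart.

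Of the 78 genes, 77 had reads in every library. Mrpl53 (chr6:83109040-83109939, plus strand, GRCm38) was listed at 0 reads in all 25 libraries, and 89.9% of its exon bases are shared with Gm42688 on the same strand or Ccdc142os on the other. In all, 33 genes share exon bases with another gene and 11 share over 20% of them. Among the 11 are Mrps25 (69.8%, with Nr2c2 on the other strand), Mrpl19, Mrpl43, Mrpl47, Mrps18b, Mrps18c and Mrps6. How the counting divided such reads, and whether it used strand, is not given in the sources used here, so the values of these genes are uncertain. The 78 genes lie on 17 chromosomes.

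The regulatory sequence upstream of the genes is shown for 5 of the members named in the results below. Transcription of nuclear genes for mitochondrial proteins is known to be driven by NRF1, by GABPA and related ETS factors, and by YY1. RefSeq promoter windows on GRCm38.p6, from 250 bases before to 50 after the start, were found for 69 of the 78 genes (75 windows). The letters GCATGCGC of the NRF1 motif, searched on both strands, stood in 10.7% of these windows, in 4.86% of those of all genes tested and in 2.71% of all promoters. The ETS letters CCGGAAGT stood in 16.0% of the members' windows against 7.57% and 3.89%, and the YY1 letters AAGATGGC in 16.0% against 4.21% and 2.75%. Of the 12 windows with the YY1 letters, 8 held them after the start. The SP1 letters GGGCGG (52.0% against 60.3% of genes tested) and the E-box CACGTG (9.33% against 9.59%) were no more frequent than in the genes tested, and stood in 35.7% and 7.15% of all promoters. TCAAGGTCA, the letters of ESRRA, was in none. The NRF1 letters stood in 7 of 48 large subunit and 1 of 27 small subunit windows, and the ETS letters in 8 and 4. A match of letters is a description and not a binding site. The 150 bases before the start are printed below 5′ to 3′ on the gene's strand, with matches to the NRF1 or ETS letters in capitals. Mrpl9 (chr3:94443186-94443335, plus strand), lower on the HFD in both depots, holds the NRF1 letters on both strands. Mrpl27 (chr11:94653641-94653790, plus strand), Mrpl43 (chr19:45006443-45006592, minus strand) and Mrps22 (chr9:98601680-98601829, minus strand), higher on the HFD in at least 1 depot, hold the ETS letters. Mrps6 (chr16:92058186-92058335, plus strand), among the members with the largest differences, holds neither. These 5 do not stand for all members called with diet. Mrpl40, Mrpl58, Mrps14, Mrps33, Mrpl20 and Mrps5 hold none of the NRF1, ETS or YY1 letters in their windows, while Mrps18b holds the NRF1 and Mrps18c the ETS letters.
Mrpl9: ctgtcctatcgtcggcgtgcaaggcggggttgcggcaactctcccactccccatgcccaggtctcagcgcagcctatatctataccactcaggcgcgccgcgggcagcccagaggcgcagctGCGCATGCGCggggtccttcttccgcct
Mrpl27: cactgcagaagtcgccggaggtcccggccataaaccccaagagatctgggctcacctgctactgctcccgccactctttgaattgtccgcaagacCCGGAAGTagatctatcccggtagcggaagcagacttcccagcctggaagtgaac
Mrpl43: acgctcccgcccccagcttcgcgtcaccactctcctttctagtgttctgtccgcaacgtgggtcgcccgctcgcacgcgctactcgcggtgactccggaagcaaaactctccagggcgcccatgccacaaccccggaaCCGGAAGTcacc
Mrps22: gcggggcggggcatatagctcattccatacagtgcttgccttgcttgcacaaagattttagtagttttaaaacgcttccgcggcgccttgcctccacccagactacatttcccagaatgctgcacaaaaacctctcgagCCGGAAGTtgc
Mrps6: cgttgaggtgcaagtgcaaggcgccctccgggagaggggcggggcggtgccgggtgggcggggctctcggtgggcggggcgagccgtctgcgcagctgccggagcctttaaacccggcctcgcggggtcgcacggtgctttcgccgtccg

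Per length of transcript, the members differed widely in level. Mean FPKM (reads per length of cDNA and per library size) over the 25 libraries ran from 3.22 to 92.8 among the 77 detected genes, with a median of 15.8 over all 78. The large subunit genes had a median of 17.5 and the small subunit genes of 9.88. Small subunit Mrps21 was highest, with group means from 74.1 ± 7.5 (SD, n = 4, eWAT ND) to 111 ± 27 (n = 5, eWAT KO). Mrpl20, whose bacterial counterpart is needed for assembly of the large subunit, followed at 62.8 and Mrps6 at 59.5. Mrpl18, a neighbor of the central protuberance, and Mrpl12, the stalk protein that recruits translation factors, had means of 43.7 and 43.1. Mrps28 (37.1) was the third small subunit gene. Mrpl20 exceeded Mrps6 beyond their SD in both ND groups (46 ± 5.0 against 33.6 ± 3.8 FPKM in eWAT, 41.6 ± 6.0 against 26.2 ± 3.5 in iWAT). In iWAT WT HFD the order was turned, at 65.1 ± 2.6 and 74.9 ± 7.9. Mrps6 was above Mrpl20 in every library of this group, by least in HFD 3 (61.5 against 61.1 FPKM). Mrpl18 and Mrpl12 differed by less than their SD in every group but eWAT ND. At the other end were Mrps35 (3.22), Mrpl33 (3.33), Mrpl47 (3.62), Mrpl19 (3.70) and Mrps10 (3.96), and Mrps5 stood at 5.65. The 3 genes named Mrps18 encode relatives of 1 bacterial protein, and had 16.1 (Mrps18c), 9.88 (Mrps18a) and 9.42 (Mrps18b). Mrpl58, which frees stalled ribosomes by cutting the peptide from its tRNA, had 8.97, Mrpl55 had 24.9 and Mrps12, of the decoding center, 19.5. Mrps30 had 6.59, and Mrps36, a part of the oxoglutarate dehydrogenase complex rather than of the ribosome, had 16.6.

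The balance of the subunits moved little over the 6 groups. The sum of FPKM over the large subunit genes was 1.74 to 1.98 times that over the small subunit genes in all 25 libraries. Group means of this ratio were 1.90 ± 0.06 (SD, n = 4) in eWAT ND, 1.86 ± 0.05 (n = 5) in eWAT WT HFD and 1.81 ± 0.07 (n = 5) in eWAT KO. In iWAT they were 1.91 ± 0.05 (n = 3), 1.82 ± 0.06 (n = 5) and 1.83 ± 0.03 (n = 3). The ND group had the highest mean in both depots, by about the size of the SD, and no test was made of a score over chosen genes. As a mean over genes, log2 FPKM was 0.08 to 0.19 higher for the large subunit genes, with a mean of 0.14 over the libraries. This difference was 0.29 without Mrpl53, 0.07 with the subunits assigned by structure and -0.04 on CPM, which are not per length, so its size and direction depend on the measure. The large subunit sum was 747 to 858 FPKM in eWAT ND and 874 to 1142 in eWAT WT HFD, which did not overlap, and the small subunit sum was 389 to 464 and 453 to 626, which did.

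**Figure D1:**
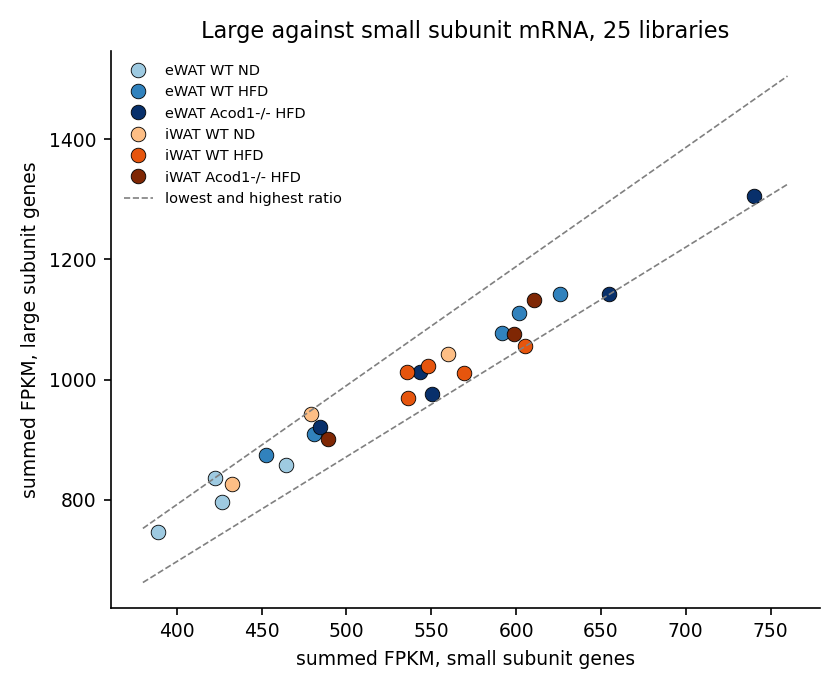
Summed FPKM of the small subunit genes (x axis) and of the large subunit genes (y axis), 1 point per library, for the 6 groups. The libraries lie along 1 band, with a large-to-small ratio of 1.74 to 1.98, and eWAT KO 2 is farthest out.

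In eWAT, the HFD was accompanied by higher levels of many mitochondrial ribosomal protein genes of both subunits in WT mice. Of 77 members tested, 36 rose (24 large and 12 small subunit) and 2 fell, Mrpl9 and Mrps5, at an adjusted p under 0.1 in edgeR's quasi-likelihood test, which is the meaning of rose, fell and called throughout. Among all 14936 genes tested, 24.8% rose and 26.9% fell. The median log2 fold change of the members was 0.36, with 0.36 for the large and 0.40 for the small subunit genes, against -0.04 over all genes tested. Of the members, 67 were above 0, and for 18 of them every HFD library was above every ND library, as for 17.2% of all genes. Of the 46 members with a bacterial counterpart 23 rose and 2 fell, and of the 31 classed as found only in mitochondria 13 rose and 0 fell. That class includes Mrps18a and Mrps18b, relatives of a bacterial protein, and Mrps36, which is not part of the ribosome. Those holding the ETS letters in their promoter rose in 6 of 12 cases, those with the NRF1 letters in 2 of 8 and those with the YY1 letters in 3 of 12. Without these letters the counts were 25 of 56, 29 of 60 and 28 of 56.

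The large subunit genes with the smallest adjusted p were Mrpl40, Mrpl54, Mrpl58 and Mrpl43. Mrpl54 (chr10:81264713-81266934, minus strand), an addition of the mitochondrial ribosome, had 17.4, 19.5, 23.7 and 17.0 CPM in ND and 28.2, 30.4, 45, 47.3 and 55.9 CPM in WT HFD, a log2 fold change of 1.09 ± 0.27 (SE, adjusted p = 0.00589). Every HFD library was above every ND library, and HFD 1 and 2 were nearest to the ND range. Mrpl40 (chr16:18872018-18876862, minus strand), also specific to mitochondria, had 21.4, 19.3, 21.1 and 23.9 CPM in ND and 23.3, 32.6, 36.9, 37.5 and 34.9 CPM in HFD (0.62 ± 0.14, adjusted p = 0.0033). Here HFD 1 lay inside the ND range. Mrpl58 rose by 0.76 ± 0.20 (adjusted p = 0.00789), from at most 20.6 CPM in ND to at least 23.0 in HFD. Mrpl43, printed above, rose by 0.63 ± 0.16 (adjusted p = 0.00808). Mrpl20 (0.68, adjusted p = 0.0253), Mrpl12 (0.64, adjusted p = 0.0572) and Mrpl18 (0.46, adjusted p = 0.0515), the abundant large subunit genes, also rose. Mrpl9 (chr3:94443318-94451130, plus strand), whose bacterial counterpart reaches between neighboring ribosomes, went the other way. It had 46.7, 50.9, 59.7 and 61.1 CPM in ND and 36.5, 38, 36.2, 38.9 and 34.0 CPM in HFD (-0.57 ± 0.11, adjusted p = 0.00136), without overlap.

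Among the small subunit genes, Mrps14, Mrps33, Mrps18b and Mrps6 led. Mrps6 (chr16:92058270-92112227, plus strand), the counterpart of a bacterial protein of the subunit's platform, had 45, 48.8, 60.3 and 46.3 CPM in ND and 60.3, 68.8, 134, 120 and 137 CPM in HFD (1.06 ± 0.29, adjusted p = 0.0106). Its HFD 1 library stood at the highest ND value, and HFD 3 to 5 stood well above HFD 1 and 2. Of its exon bases 30.3% are shared with Slc5a3, a transporter of inositol, and Gm49711. Slc5a3 had -0.37 (adjusted p = 0.117) in the same comparison. Mrps14 (chr1:160195215-160202170, plus strand), which sits in the head of the subunit, had 37.1, 34.9, 40.1 and 45.7 CPM in ND and 46.8, 52.2, 82.2, 79.6 and 84.0 CPM in HFD (0.81 ± 0.19, adjusted p = 0.00549). The groups did not overlap, and the gap between HFD 2 and 3 returned. Mrps33 rose by 0.56 ± 0.14 (adjusted p = 0.0079) and Mrps18b by 0.55 ± 0.14 (adjusted p = 0.0088). Mrps18c rose as well (0.53, adjusted p = 0.0293), while Mrps18a had 0.07 (adjusted p = 0.746). Mrps36 rose by 0.49 (adjusted p = 0.0671). Mrps30 had 0.06 (adjusted p = 0.805), Mrps12 0.15 (adjusted p = 0.549) and Mrps21, the most abundant, 0.43 (adjusted p = 0.132). Mrps5 (chr2:127587222-127606829, plus strand), near the entry of the messenger RNA, fell from 33.8 to 43.1 CPM in ND to 22.1 to 32.1 CPM in HFD (-0.40 ± 0.17, adjusted p = 0.074).

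**Figure D2:**
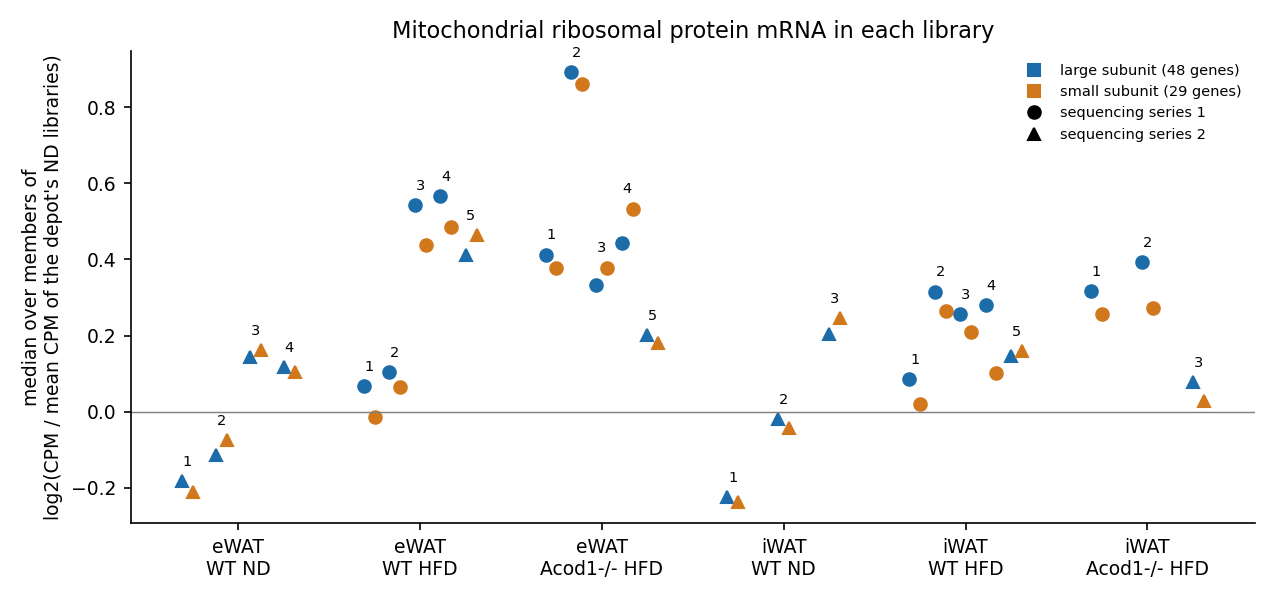
Median over the 48 large (blue) and over the 29 small subunit genes (orange) of a log2 ratio (y axis), by group (x axis). The ratio is of CPM in a library to the mean CPM of the ND libraries of its depot. Circles mark series 1 and triangles series 2, with the replicate number above. In eWAT the large subunit medians are 0.07 and 0.10 in WT HFD 1 and 2 and 0.41 to 0.57 in WT HFD 3 to 5, and KO 2 is highest at 0.89.

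The libraries of a group were not alike, as the plot of the members by library shows. The median log2 ratio of the 77 members to their ND mean was 0.05 and 0.08 in WT HFD 1 and 2 and 0.50, 0.55 and 0.45 in WT HFD 3, 4 and 5. In WT HFD 1 and 2, 23 and 26 members were above every ND library, and in the other WT HFD libraries 60 or 61 were. WT HFD 1 and 2 also had the lowest summed adipocyte markers of the group (20684 and 30172 CPM, against 33514 to 46153), and WT HFD 1 the highest macrophage sum (6923 CPM). Over the groups, the macrophage sum was 526 to 997 CPM in ND, 1863 to 6923 in WT HFD and 459 to 1850 in KO, and all 10 macrophage markers rose with diet. The 5 fibroblast markers rose too, with a sum of 1640 to 2071 CPM in ND, 2910 to 5841 in WT HFD and 1573 to 3222 in KO. Of 10 adipocyte markers 6 fell and 1 rose. The part of these cell types in the members' differences was not tested.

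The diet result rested in part on how the series read from the headers was handled and on single libraries. WT HFD 5, in the series of the ND libraries, had a members' median of 0.45 and 60 members above every ND library, against 33.9% of all genes. A fit with series as a term called 10 members higher and 3 lower (median 0.27), where 17.5% of all genes rose and 16.9% fell. A fit to series 2 alone, chosen after the headers were seen and with 1 library in each HFD group assumed to vary like the others, called 15 higher and 0 lower (median 0.47; 7.97% of all genes rose). Without ND 1 the count of higher members was 22, without HFD 4 it was 24 and without ND 2 it was 25, where 22.3, 21.8 and 22.5% of all genes rose. In all, 23 of the 38 calls (where 51.8% of all genes were called) were made in each of the 14 fits that left out 1 library.

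Genes of related function were compared by lists. The cytosolic ribosomal protein genes rose most broadly in eWAT, 76 of 80 (median log2 fold change 0.83). Of 82 nuclear genes for respiratory chain and ATP synthase subunits, 26 rose and 10 fell (median 0.31). Of 5 mitochondrial ribosomal proteins with other names, 3 rose (Chchd1 0.63, Gadd45gip1 0.72, Aurkaip1 0.42) and Ptcd3, an RNA-binding protein of the small subunit, fell (-0.51). Factors that serve the ribosome are listed next. Of 25 assembly factors 3 rose and 7 fell, 28% against the 26.9% of all genes (Dhx30, an RNA helicase, -0.61; Ngrn -0.69; Rbfa 0.59), and of 15 translation and RNA-stability factors 1 rose (Slirp 0.67) and 7 fell, including the elongation factor Gfm1 (-0.57), the ribosome recycling factor Gfm2 (-0.48) and Lrpprc (-0.54). Of 17 mitochondrial aminoacyl-tRNA synthetases 8 fell (Hars2 -0.69, Vars2 -0.69, Iars2 -0.54) and 0 rose. Of 10 genes for copying and transcribing mitochondrial DNA 4 fell (Mgme1 -1.03, Twnk -0.72) and 0 rose. Among 8 regulators Ppargc1a, the coactivator of mitochondrial biogenesis, fell (-0.64, adjusted p = 0.0622) and Esrra rose (0.53, adjusted p = 0.0667). Neither mitochondrial ribosomal RNA was called, and of 13 mitochondrially encoded messenger RNAs 2 fell.

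In iWAT, fewer members rose with diet, and the leading genes were in part those of eWAT. Of 77 members 26 rose (17 large, 9 small) and 3 fell, Mrpl9, Mrpl47 and Mrps5. Among 14801 genes tested, 25.9% rose and 24.2% fell, so the members' share of 33.8% higher was nearer to the background than in eWAT. The median log2 fold change was 0.24 (0.26 large, 0.20 small), against 0.00 over all genes. Of members with a bacterial counterpart 15 rose and 3 fell, and of those classed as found only in mitochondria 11 rose and 0 fell.

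Mrps6, Mrpl54 and Mrpl20 led in iWAT, in each case with every HFD library above every ND library, as for 15 members and 23% of all genes. Mrps6 had 35.3, 31.7 and 45 CPM in ND and 118, 133, 96.7, 120 and 116 CPM in HFD (1.68 ± 0.14, adjusted p = 5.73e-05). The series 2 library HFD 5, at 116 CPM, was within the range of the other HFD libraries. Slc5a3, which shares exon bases with it, rose by 0.94 (adjusted p = 0.0387). Mrpl54 had 16.0, 18.5 and 21 CPM in ND and 34.4, 44.5, 31.4, 35.5 and 38.3 CPM in HFD (1.02 ± 0.15, adjusted p = 0.000445). Mrpl20 had 51.6, 65.7 and 75.7 CPM in ND and 105, 119, 104, 113 and 111 CPM in HFD (0.81 ± 0.13, adjusted p = 0.00087). Mrpl27, next to the peptidyl transferase center, rose by 0.64 ± 0.14 (adjusted p = 0.00517), and Mrpl13 by 0.52 ± 0.11 (adjusted p = 0.00339). In the small subunit Mrps14 (0.62 ± 0.14, adjusted p = 0.00509), Mrps22 (0.69 ± 0.18, adjusted p = 0.0118), Mrps25 (0.42 ± 0.11, adjusted p = 0.0131) and Mrps28 (0.52, adjusted p = 0.0171) rose. Among the rarer genes, Mrpl33 rose (0.41, adjusted p = 0.0833), but it was called in only 2 of 11 fits that left out 1 library. Of the 29 iWAT calls, 16 were made in every such fit.

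The members that fell were again few. Mrpl9 had 60.1, 57.5 and 72.3 CPM in ND and 41.2, 40.9, 56.6, 45.4 and 46.6 CPM in HFD (-0.43 ± 0.14, adjusted p = 0.0315). Mrpl47 (chr3:32725397-32737605, minus strand) had 19.6, 22.5 and 24.5 CPM in ND and 14.2, 14.6, 15, 18.7 and 15 CPM in HFD (-0.49 ± 0.16, adjusted p = 0.0275). Mrps5 fell from 43.9 to 47.3 CPM to 30.1 to 40.1 CPM (-0.29 ± 0.11, adjusted p = 0.0468). For none of these 3 did the groups overlap. Such separation was common in iWAT, and in the other direction, every HFD library above every ND library, it held for 23% of all genes tested.

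Markers of other cells moved with diet in iWAT too. Brown adipocyte markers summed to 208 to 1436 CPM in ND and 85.1 to 162 in HFD, and 5 of 7 fell. iWAT ND 3, the library with most of them, was the highest ND library for 73 of 77 members, and ND 1, with least, the lowest for 62. All 5 B-cell markers fell and 8 of 10 macrophage markers rose. The 5 fibroblast markers rose, from a sum of 855 to 1357 CPM in ND to 2342 to 4695 in HFD. Skeletal muscle markers summed to 7125 CPM in ND 1, against 5.50 and 275 in ND 2 and 3 and 18.4 to 298 in HFD, and all 5 fell. The part of these cells in the members' values was not tested. Without ND 3, 32 members rose, against 21.8% of all genes. Without ND 2, 15 of 77 rose, against 19.1% of all genes, and without ND 1, the library with the muscle markers, 14 of 77 rose and 11 fell, against 23.1 and 21.2%. With series as a term 11 rose and 1 fell (median 0.15), where 21.4% of all genes rose, and in series 2 alone 4 rose and 0 fell (median 0.23), where 9.76% did. In iWAT, 23 of 82 cytosolic ribosomal protein genes fell and 3 rose (median -0.21), and 9 of 81 respiratory genes fell and 7 rose (median 0.02). Falls outnumbered rises for the translation factors (7 and 2 of 15), the synthetases (5 and 0 of 17), the mitochondrial DNA genes (6 and 0 of 10) and the regulators (5 and 0 of 8).

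The diet comparisons of the depots share no library, though whether both depots came from the same mice is not given. In both, 18 members rose, which is 50% of the 36 of eWAT and 69.2% of the 26 of iWAT. Over the 14128 genes tested in both depots these shares were 49.9 and 48.3%. Of the 77 members 2, Mrpl9 and Mrps5, fell in both, where 10.9% of all genes did. In opposite directions 0 members were called (5.51% of all genes), and 30 were called in neither (39% of them, against 28% of all genes). The plot of 6 members shows the shared cases library by library.

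**Figure D3:**
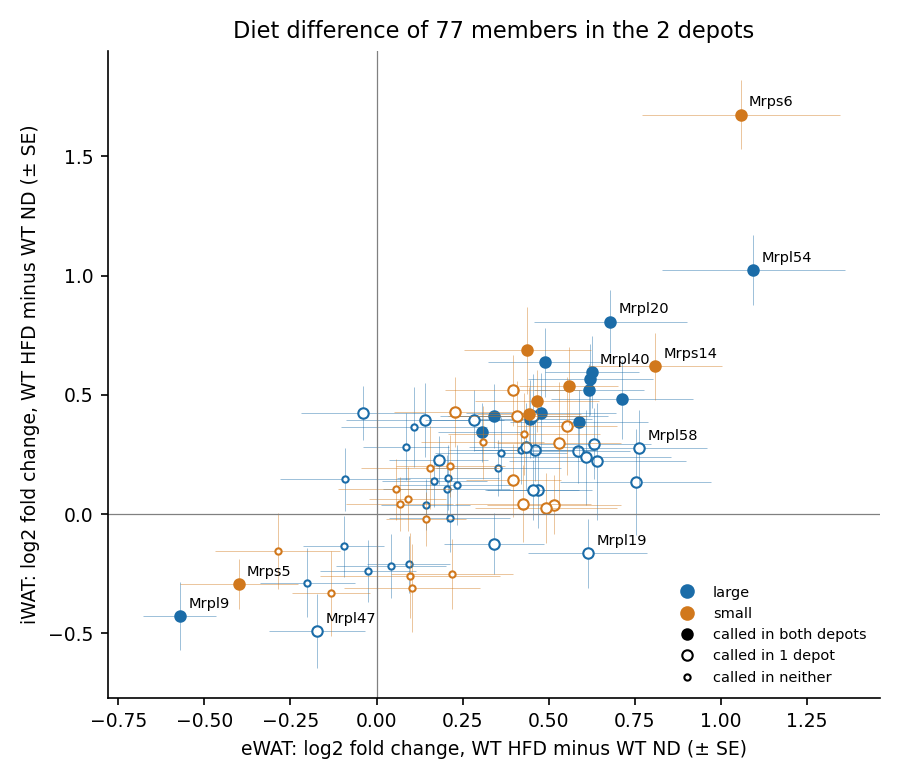
Log2 fold change of each member with diet in eWAT (x axis) and iWAT (y axis), with the SE as lines, large subunit genes in blue and small in orange, filled where called in both depots. Mrpl54 and Mrps6 lie farthest to the upper right, at 1.09 and 1.02 and at 1.06 and 1.68, and Mrpl9 (-0.57 and -0.43) and Mrps5 (-0.40 and -0.29) at the lower left.

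**Figure D4:**
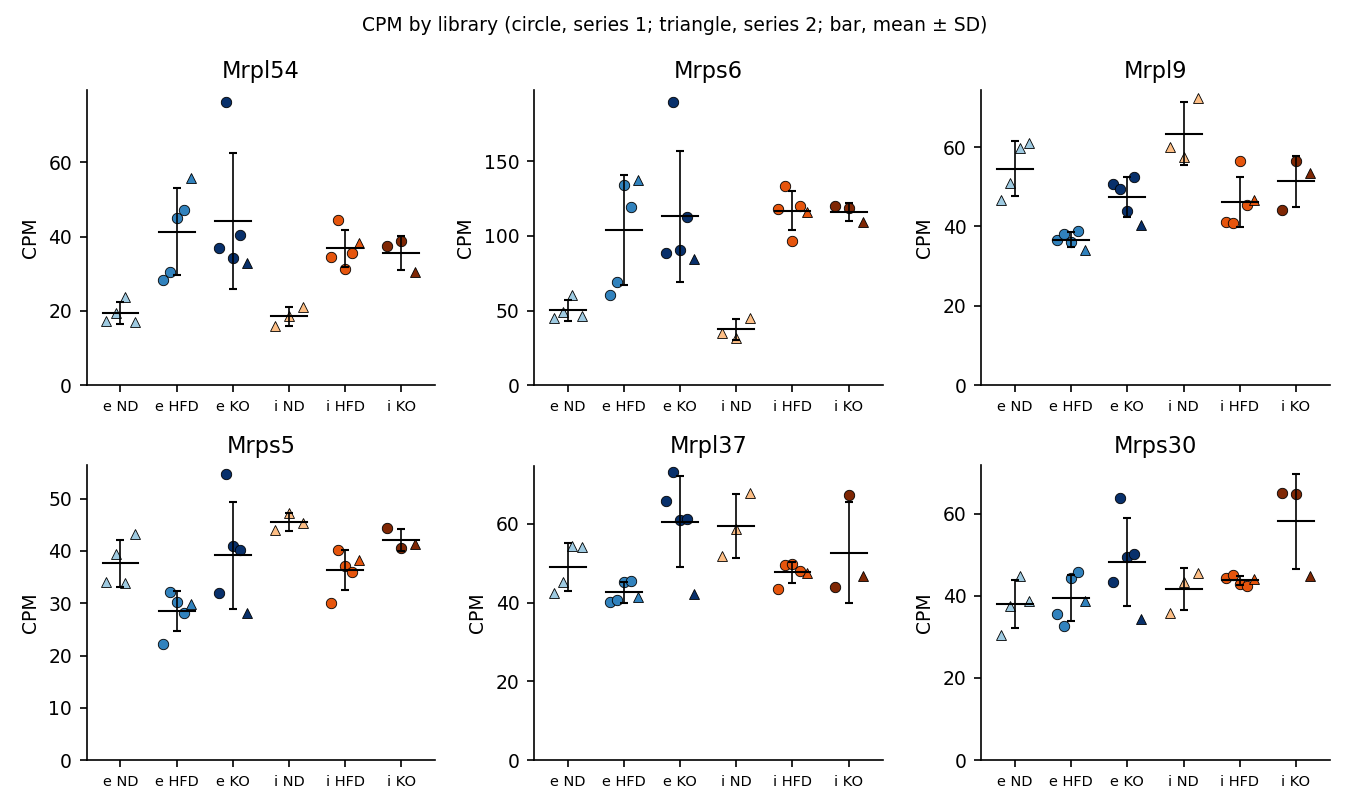
CPM of 6 members in every library of the 6 groups, 1 point per library (circles series 1, triangles series 2), with bars for the mean ± SD; e is eWAT and i is iWAT. Mrps6 in iWAT goes from 31.7 to 45 CPM in ND to 96.7 to 133 CPM in WT HFD, and Mrpl9 goes down in both depots.

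The shorter members rose more than the longer ones, a feature the naming rule did not use and that was looked at after the values were seen. The coding sequence of the members has a median of 588 bases, against 1389 over the protein-coding genes tested. Across the 77 genes, which are not independent and share libraries, Spearman's rho between log2 fold change and coding length was -0.58 in eWAT and -0.49 in iWAT, and -0.23 and -0.12 over all protein-coding genes. Of the 25 members of 195 to 480 bases, 16 rose and 0 fell in eWAT (median 0.49). Among the 1044 protein-coding genes tested of these lengths, 501 rose and 113 fell (median 0.41). Of the 26 members of 756 to 1326 bases, 7 rose and 2 fell (median 0.10), and of 3641 genes of these lengths 1020 rose and 757 fell (median 0.04). In iWAT the same classes of members gave 11 and 0 (median 0.34) and 3 and 3 (median -0.13). All genes of these lengths gave 392 and 117 of 990 (median 0.26) and 1033 and 819 of 3627 (median 0.06). The cytosolic ribosomal protein genes (-0.66) and the respiratory genes (-0.58) had like correlations in eWAT. The share of reads on short transcripts, with a cDNA under 1000 bases and not mitochondrial, ranged from 2.88% in eWAT ND 1 to 4.70% in eWAT KO 2, the eWAT libraries in which members were lowest and highest. Its part in the members' differences was not tested.

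**Figure D5:**
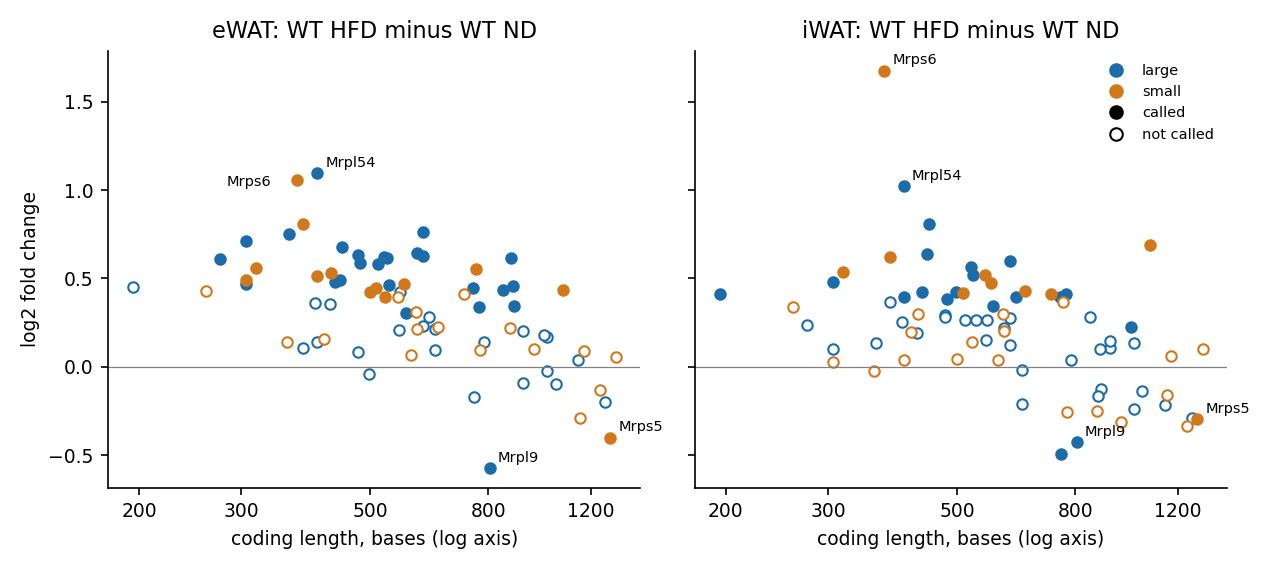
Log2 fold change with diet of each member (y axis) against the length of its coding sequence in bases (x axis, log scale) in eWAT and iWAT, large subunit genes in blue and small in orange, filled where called. Short members lie higher, with Spearman's rho of -0.58 and -0.49.

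In eWAT on the HFD, few members differed between KO and WT mice. Mrpl37, Mrpl9, Mrpl49 and Mrps5 rose in KO and 0 members fell, out of 77, where 9.13% of all genes tested rose and 10.8% fell. The members' median log2 fold change was 0.16 (0.15 large, 0.18 small), against 0.04 over all genes, and 67 were above 0. Mrpl37, specific to mitochondria, had 40.1, 40.7, 45.3, 45.5 and 41.4 CPM in WT and 65.7, 73.2, 60.9, 61.1 and 42.1 CPM in KO (0.51 ± 0.13, adjusted p = 0.0261). KO 1 to 4 were above every WT library and KO 5, of series 2, was within the WT range. Mrpl49 had 30.9, 36.8, 45.4, 45.8 and 51.9 CPM in WT and 59.5, 82.0, 58.0, 60.5 and 41.8 CPM in KO (0.52 ± 0.17, adjusted p = 0.0631), with KO 5 again inside. Mrpl9 and Mrps5, which fell with diet, rose in KO. Mrpl9 had 50.7, 49.5, 43.8, 52.6 and 40.4 CPM in KO, all above the 34.0 to 38.9 CPM of WT HFD (0.37 ± 0.10, adjusted p = 0.0324). Mrps5 had 31.9, 54.7, 40.9, 40.2 and 28.2 CPM in KO, against 22.1 to 32.1 CPM in WT HFD (0.46 ± 0.16, adjusted p = 0.0815). In the 14 fits that left out 1 library, Mrpl37 and Mrpl9 were called in each, Mrpl49 in 8 and Mrps5 in 6. The diet and genotype comparisons share the WT HFD libraries, so these opposite signs are not independent.

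Both ends of the KO group were single libraries. KO 2 was the highest of its group for 68 of 77 members and KO 5 the lowest for 56, where over all genes the shares were 26.2 and 27.2%. KO 2 had 13.21% of its counted reads on mitochondrially encoded genes, the most of the 25 libraries, and KO 5 the highest macrophage sum (1850 CPM, against 459 to 877) and the lowest adipocyte sum of its group (37497 CPM). Without KO 2 the median of the members was 0.02, with 2 higher and 1 lower, and without KO 5, 10 were higher, where 13.5% of all genes were. The count of higher members was also 2 without WT HFD 1, WT HFD 2, KO 3 or KO 4. With the 4 KO and 4 WT libraries of series 1 alone, 8 rose, where 11.1% of all genes did. All 10 macrophage markers fell in KO and 6 of 10 adipocyte markers rose, and the 5 fibroblast markers fell. Their part was not tested. Of the related lists, 9 respiratory genes of 82 rose and 1 fell (median 0.28), 4 of 15 translation factors and 4 of 17 synthetases rose and 0 fell, and 3 of 80 cytosolic ribosomal protein genes fell and 0 rose (median -0.22).

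In iWAT on the HFD, 0 members and 0 of 14801 genes were called between KO and WT mice by edgeR, and 2 members had an unadjusted p under 0.05, against 16.7% of all genes. DESeq2's Wald test called 1 member. The median log2 fold change of the members was 0.04, against -0.02. The members with the smallest p were Mrps30 (0.38 ± 0.13, adjusted p = 0.183), Mrps15 (0.41 ± 0.18, adjusted p = 0.288) and Mrps35 (0.38 ± 0.18, adjusted p = 0.327) in the small subunit and Mrpl1 (0.22 ± 0.11, adjusted p = 0.333), Mrpl39 (0.26 ± 0.13, adjusted p = 0.346) and Mrpl51 (0.29 ± 0.17, adjusted p = 0.412) in the large subunit by symbol. Mrps30, a large subunit protein despite its name, had 44.2, 45.1, 43, 42.4 and 44.1 CPM in WT and 64.9, 64.8 and 44.8 CPM in KO. KO 1 and 2 were above every WT library, and KO 3, of series 2 and labelled 18 weeks, was within their spread. KO 3 was the lowest of its group for 53 of 77 members, where over all genes the share was 38.5%. Without it 10 members rose and 1 fell, where 9.43% of all genes rose and 8.5% fell. In the 2 KO and 4 WT libraries of series 1 alone, a choice made after this was seen, 10 members rose, where 7.11% of all genes did. Of these, 3 also rose in eWAT in series 1 alone, namely Mrps15 (0.68 in eWAT, 0.65 in iWAT), Mrps35 (0.58, 0.66) and Mrpl51 (0.65, 0.48). Of 13897 genes tested in both depots in series 1, 2.42% rose in both.

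The depots themselves were compared in 1 fit to all 25 libraries. On the ND, 10 members were lower in eWAT than in iWAT, 5 of each subunit, and 0 were higher, where 14.2% of 15034 genes were lower and 17.5% higher. They were led by Mrpl47 (-0.58 ± 0.16, adjusted p = 0.00999), Mrpl15 (-0.47 ± 0.15, adjusted p = 0.0243) and Mrpl19 (-0.54 ± 0.18, adjusted p = 0.0303). This count rested on single ND libraries, and was 1 without iWAT ND 3, 5 without iWAT ND 2, 16 without iWAT ND 1, 4 without eWAT ND 1 and 6 without each of the other eWAT ND libraries. In WT HFD mice 2 were lower, Mrpl9 (-0.33 ± 0.11, adjusted p = 0.044) and Mrps5 (-0.35 ± 0.14, adjusted p = 0.0975), against 7.75% of all genes, and in KO mice 0 were called either way (2.01% of genes higher, 1.8% lower). Without iWAT WT HFD 3 the count of lower members on the HFD was 0, and without other single libraries 1 or 2. The change with diet itself differed between depots for 2 members (14% of all genes differed in this direction). Mrpl19, a large subunit protein near the contact with the small subunit, had 14.7, 14, 17.4 and 15.3 CPM in eWAT ND and 24.9, 19.5, 22.2, 27.6 and 22.9 CPM in eWAT HFD. In iWAT it had 22.5, 19.7 and 24.7 CPM in ND and 17.1, 19.1, 18.8, 21.1 and 21.1 CPM in HFD. It rose in eWAT with no overlap (0.61 ± 0.17, adjusted p = 0.0124) and had -0.17 ± 0.15 in iWAT (adjusted p = 0.384), a difference of 0.81 ± 0.23 (adjusted p = 0.0159). For Mrpl15 the difference was 0.49 ± 0.19 (adjusted p = 0.0713). The count of such members was 6 without iWAT ND 1, 5 without eWAT KO 2, 4 without eWAT WT HFD 2 and 1 to 3 without each other library. The cytosolic ribosomal protein genes differed between depots in this way for 75 of 81. For the genotype comparison 0 members differed between depots, and 1 gene of 15034 did (0.00665%).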

How the data were processed

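Directional mRNA libraries were made from snap-frozen fat. Per the labels and the study's methods, the authors trimmed the reads with cutadapt, aligned them with STAR to mm10 and deposited 1 table per library, with gene counts from reads that aligned uniquely, the cDNA length and FPKM values. Here, the FPKM relative to counted reads was used for levels between genes, and counts for tests. Printed CPM are counts scaled to a library size adjusted by TMM factors, so they differ from plain shares of the reads. Reads that the files assign to no gene were left out (6.413 to 11.88% of all reads listed overlapped none). Genes whose mean reached 1 CPM, for this filter without TMM factors, were tested with edgeR 4.0.16 (R 4.3.3, TMM, quasi-likelihood). There was 1 fit per depot and 1 over all libraries for depots, with Benjamini-Hochberg adjustment over all genes and a threshold of 0.1. DESeq2 1.42.0 was an alternative. The study's captions give as many mice per group of a depot as there are libraries, so p-values measure the spread between mice. Genes were named by a rule: per comparison and direction the 4 called members of each subunit with the smallest adjusted p (the 3 with the smallest p where none was called, the 3 called ones per depot comparison), members against the main direction, the 3 highest and lowest per subunit, and a set chosen for their roles. The members and all lists were chosen with earlier results of these data known.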

Additional observations from a re-analysis of the deposited data

Results flagged for a closer look

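Over named members and the subunit sums and balance, 120 group tests for a single library far from the others of its group gave 8 cases, all for single members. Chance gives about 1 in 20. The iWAT ND and iWAT KO groups held too few libraries to be tested. In 6 of them the library was eWAT KO 2, the highest of its group, with 76.28 CPM of Mrpl54, 39.83 of Mrpl43, 32.03 of Mrps33, 189.6 of Mrps6, 221.6 of Mrpl20 and 45.82 of Mrpl39. This library also had the highest share of mitochondrially encoded reads of all 25, 13.21%, whose part was not tested. The other 2 were in iWAT WT HFD 4, with 27.3 CPM of Mrps18b and 18.66 CPM of Mrpl47. A difference between depots in the change with diet, tested as an interaction, was found for Mrpl19 (0.8085 on the log2 scale) and Mrpl15 (0.4949).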

How the results depend on the processing

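No called value of a named gene changed sign under the alternatives run. Of the refitted values of named genes, 99 lost their call and 798 kept their side of the threshold for diet in eWAT, 98 and 316 for genotype in eWAT, 70 and 650 for diet in iWAT, 18 and 147 between depots on ND, 30 and 38 between depots on the HFD, and 10 and 56 for the interaction with diet, while 10 gained a call and 110 did not change for genotype in iWAT. The counts that follow are of members alone. The share of all genes called also moved with the setting, so these counts do not set the members apart from other genes. For several of the fits that share is given above. At an adjusted p under 0.05, the diet counts in eWAT were 24 higher and 1 lower, and the eWAT genotype count was 2. The depot counts were 4 lower (ND) and 1 lower (HFD), and the interaction with diet 1. With no filter on low counts these were 31 and 1, 1, 4, 0 and 1. With 1 CPM in every library, 7 members were lower with diet in iWAT and 1 lower between depots on the HFD, which DESeq2's size factors also gave (1), and DESeq2's Wald test called 1 higher in the iWAT genotype comparison. Fits to only the groups compared gave 2 for the eWAT genotype, 8 lower with diet in iWAT, 2 higher between depots on ND, and 7 higher and 1 lower for the interaction. With series as a term 10 members were higher in eWAT, and 11 higher and 1 lower in iWAT. In series 2 alone these were 15 and 0 lower in eWAT, and 4 and 0 in iWAT. Series 1 alone gave 8 (eWAT genotype), 10 (iWAT genotype) and 0 lower (depot on HFD). The series fits were chosen after the data were seen, except the series term. The cause was not tested for any of these.

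Leaving out each library in turn gave 22 to 45 higher and 1 to 2 lower for diet in eWAT, 14 to 32 and 2 to 11 in iWAT, 2 to 10 and 0 to 1 for genotype in eWAT, and 0 to 10 and 0 to 1 in iWAT. Between depots it gave 0 to 1 higher and 1 to 16 lower on ND, 0 and 0 to 2 on the HFD, 0 and 0 in KO, and 1 to 6 and 0 for the interaction. These counts, and those with a block below, are of members alone. They are not set against the share of all genes called in the same fit. The subunit balance (large minus small difference of mean log2 FPKM), 0.14, was 0.0691 with subunits by structure, -0.0417 on CPM and 0.289 without Mrpl53. Whether same-numbered samples pair was not settled. The correlations of the 54 pairs ran from -0.304 to 0.489, and 20 were over 0.1. The highest were between eWAT and iWAT of WT HFD 4 (0.489) and WT HFD 1 (0.343). Differently numbered samples were not correlated for comparison, and the main depot fits took all libraries as independent. With the replicate number as a block, 33 rose and 2 fell in eWAT, 20 and 2 in iWAT, and the interaction count was 4.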

Other observations

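Many of these genes start head to head with a gene on the other strand. Within 1000 bases of the start, this held for 33 of the 78 members (42.3%) and for 15.6% of the protein-coding genes tested. In eWAT, 29 such pairs with a neighbor that is no member were tested. The member rose with diet in 11 of them and the neighbor in 4, and both rose in 1, while in 3 the member rose and the neighbor fell. The medians were 0.21 for members and -0.01 for neighbors, and in iWAT, over 26 pairs, 0.30 and -0.26. Mrpl54 starts 26 bases from Apba3, an adaptor protein gene, and had 1.09 in eWAT and 1.02 in iWAT, against -0.20 (adjusted p = 0.243) and -0.49 (adjusted p = 0.0153) for Apba3. Mrpl43 and Twnk, the mitochondrial DNA helicase, start 779 bases apart and share exon bases, and had 0.63 and -0.72 (adjusted p = 0.00318) in eWAT. Mrpl46 and Mrps11, both members and 412 bases apart, rose together in eWAT (0.43 and 0.47).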
